A study of Rattus norvegicus with 9 samples.

Results

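The 8 genes described here encode proteins that join neighbouring cells: the connexins Gja1, Gja4, Gja5, Gjb2 and Gjc1 and the cadherins Cdh2, Cdh11 and Cdh13. They were chosen by name from the 17337 genes of the count table, and all 8 were found there by symbol. RNA was sequenced from cardiac fibroblasts of Sprague Dawley rats at 3 ages: fetal (E18, embryonic day 18), neonatal (P1, postnatal day 1) and adult (7 weeks old). Every group was cultured at passage 0 to confluency in DMEM with fetal bovine serum, antibiotics and ascorbic acid, with no other treatment named in the labels. Each age has 3 libraries. The labels do not say how many animals gave a culture or whether cells were sorted, so p-values measure the spread between these libraries, which may be technical.

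Connexins form gap junctions: subunits assemble into a hemichannel, and hemichannels of adjacent cells dock into a channel that passes ions and small molecules. Cadherins are calcium-dependent adhesion proteins that bind their like on the next cell. Classical cadherins are tied through catenins to the actin cytoskeleton at adherens junctions. Fibroblasts of the heart couple to one another and, in culture, to cardiomyocytes through connexins, and N-cadherin and cadherin-11 are the cadherins most often described in mesenchymal cells.

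Library totals ran from 13392825 to 22850491 assigned counts, lowest in the adult libraries. Abundances are counts per 1000000 on TMM-scaled library sizes (CPM), and levels compared between genes are CPM per 1000 bases of annotated exon (RPKM). Fetal replicate 3 stood apart, at 77.5 and 77.1 (Euclidean distance over log2 CPM of the tested genes) from fetal replicates 1 and 2, which were 24.7 apart, and adult replicate 1 lay 47.5 and 56.3 from the other adult libraries, which were 40.0 apart. The fibroblast markers, 10 of 10 in the table and none at 0, though Col1a2 was at most at 0.109 RPKM, summed to 6420 to 11355 RPKM in fetal, 15247 to 16378 in neonatal and 7260 to 8956 in adult libraries. Other cell types' markers were present too. The 11 cardiomyocyte markers in the table each had their 3 lowest values in the adult libraries, and summed to 6506 to 10195 RPKM in fetal, 4947 to 5394 in neonatal and 278 to 291 in adult libraries, where Csrp3 was at 0 and Myh6 and Myh7 at or below 3 counts. Tnnt2 alone made up 276 to 288 RPKM of the adult sum, and Nppa, the next highest there, was at most at 0.736 RPKM. The 12 macrophage markers each had their 3 highest values in the adult libraries, summing to 9.29 to 50.7 RPKM in fetal, 111 to 121 in neonatal and 3753 to 5190 in adult libraries, with Cd163 at 0 in all fetal and neonatal libraries. In such bulk libraries fewer cells of a type and less RNA per cell cannot be told apart.

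The upstream sequences of 3 connexin genes are shown because their transcripts took 3 different courses with age: Gja1 fell, Gja5 rose and Gja4 was highest in neonatal cells. Of the 8 members, 4 had a window in the RefSeq promoter table of rat assembly GRCr8 (Gja1, Gja4, Gja5 and Gjb2). Each line gives the 250 bases before the annotated start, 5′ to 3′ on the gene's strand, from chr20:36302314-36302563 (Gja1, plus strand), chr2:187290977-187291226 (Gja5, plus strand) and chr5:144920325-144920574 (Gja4, minus strand). Capitals mark matches, on either strand, to 6 motifs: TGANTCA, the core bound by AP-1 dimers, GGGCGG, the GC box, TATAAA, the core of the TATA box, AGGTGT, a site of T-box factors, CACGTG, the E-box core, and CCAAT, the CCAAT box.
Gja1: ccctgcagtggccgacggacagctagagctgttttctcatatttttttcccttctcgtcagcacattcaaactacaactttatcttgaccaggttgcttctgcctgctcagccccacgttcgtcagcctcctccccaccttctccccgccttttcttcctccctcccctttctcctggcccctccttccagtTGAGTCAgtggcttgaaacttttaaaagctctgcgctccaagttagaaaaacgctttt
Gja5: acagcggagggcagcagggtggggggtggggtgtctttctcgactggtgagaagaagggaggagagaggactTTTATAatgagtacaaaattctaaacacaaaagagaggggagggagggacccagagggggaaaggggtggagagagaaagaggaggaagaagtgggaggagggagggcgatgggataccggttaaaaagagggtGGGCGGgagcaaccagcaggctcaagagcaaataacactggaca
Gja4: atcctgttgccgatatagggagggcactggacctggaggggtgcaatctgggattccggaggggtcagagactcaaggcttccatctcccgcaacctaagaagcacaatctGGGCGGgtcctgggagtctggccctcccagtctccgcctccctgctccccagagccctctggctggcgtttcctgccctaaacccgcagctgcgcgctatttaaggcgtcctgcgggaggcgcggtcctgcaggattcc

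The Gja1 window held 1 match, TGAGTCA, 58 to 52 bases before the start. TGANTCA occurs in 6.34% of the 33469 RefSeq windows of the same length. The Gja5 window held GGGCGG 44 to 39 bases before the start and TATAAA on the opposite strand 178 to 173 bases before it. The Gja4 window held GGGCGG 139 to 134 bases before its start. GGGCGG occurs in 30.5% and TATAAA in 12.9% of all windows, and no 2 of these matches overlapped. A match describes these letters only, and factor binding was not measured.

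Gja1 encodes connexin 43, the main connexin of cardiac fibroblasts and of ventricular cardiomyocytes. Its exons span 37876650 to 37889094 of chromosome 20 (rn6, plus strand). Gja1 was measured at 402, 405 and 409 CPM in fetal replicates 1, 2 and 3, at 93.6, 93.6 and 100.1 CPM in the neonatal replicates and at 33.4, 21.6 and 17 CPM in the adult replicates. The 3 ages did not overlap, and all fetal libraries lay within a narrow range although replicate 3 stood apart over all genes. From fetal to neonatal cells Gja1 fell 4.24-fold (log2 fold change -2.08, SE 0.191, edgeR adjusted p = 0.00011). From neonatal to adult cells it fell 3.99-fold (log2 -2.0, SE 0.198, edgeR adjusted p = 2.84e-05), and over the whole span 16.9-fold (log2 -4.08, SE 0.212, edgeR adjusted p = 3.31e-07). Per exon length Gja1 was the highest of the 8 members in fetal cells, at 129.5 ± 1.1 RPKM (SD, n = 3), above 94.8% of the tested genes. In adult cells it was sixth of 8, at 7.66 ± 2.70 RPKM, above 38.6% of them. Of the 11 markers of cardiomyocytes, which also make connexin 43, 10 were lower in every neonatal than in every fetal library and all 11 lower in every adult than in every neonatal library, and their part in the Gja1 result was not tested.

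Gja5 encodes connexin 40, known from atrial and conduction-system myocytes and arterial endothelium. It lies on chromosome 2 at 199162745 to 199184941 (plus strand). Its values were 52.2, 49.2 and 55.7 CPM in the fetal, 82.2, 83.1 and 80.9 CPM in the neonatal and 194, 112 and 109 CPM in the adult libraries, in the order of replicates 1 to 3. The ages again did not overlap, and adult replicate 1 lay well above the other adult libraries. Adult cells had 2.64-fold more Gja5 than fetal cells (log2 1.40, SE 0.200, edgeR adjusted p = 0.000205) and 1.68-fold more than neonatal cells (log2 0.75, SE 0.196, edgeR adjusted p = 0.00847). Without adult replicate 1 these log2 fold changes were 1.08 and 0.43 (edgeR adjusted p = 3.27e-06 and 0.00083, within ranges of 3.94e-11 to 0.0029 and 0.000507 to 0.0385 over the alternatives). Between fetal and neonatal cells Gja5 rose 1.57-fold (log2 0.65, SE 0.197, edgeR adjusted p = 0.0315). That call was lost when any 1 fetal or neonatal library was left out (edgeR adjusted p from 0.0703 to 0.0821, within a range of 0.000183 to 0.0821). Of the 12 endothelial markers, Robo4 was at 0 in every library, and the list summed to 29.4 to 30.0 RPKM in fetal, 25.1 to 26.1 in neonatal and 45.8 to 50.5 in adult libraries. Between adult and fetal libraries 6 of its genes were higher and 2 lower without overlap. Tie1 was the highest of these markers in each adult library, at 18.0 to 19.0 RPKM against at most 0.127 in fetal libraries. Flt1 was at 15.4 to 19.9 RPKM in fetal and 6.71 to 7.30 in adult libraries. The part of this list in the Gja5 result was not tested. The epicardial markers, 6 of 8 in the table with Bnc1 at 0 in the adult libraries, summed to 64.3 to 87.2, 47.8 to 48.5 and 81.0 to 208.5 RPKM. The highest sum was in adult replicate 1, the library highest in Gja5, where Aldh1a2 alone was at 195 RPKM. Gene by gene, 1 epicardial marker was higher and 4 lower in every adult than in every fetal library, among the latter Krt19, at 17.1 to 19.9 RPKM in fetal and at most 0.217 in adult libraries. Their part was not tested.

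**Figure D1:**
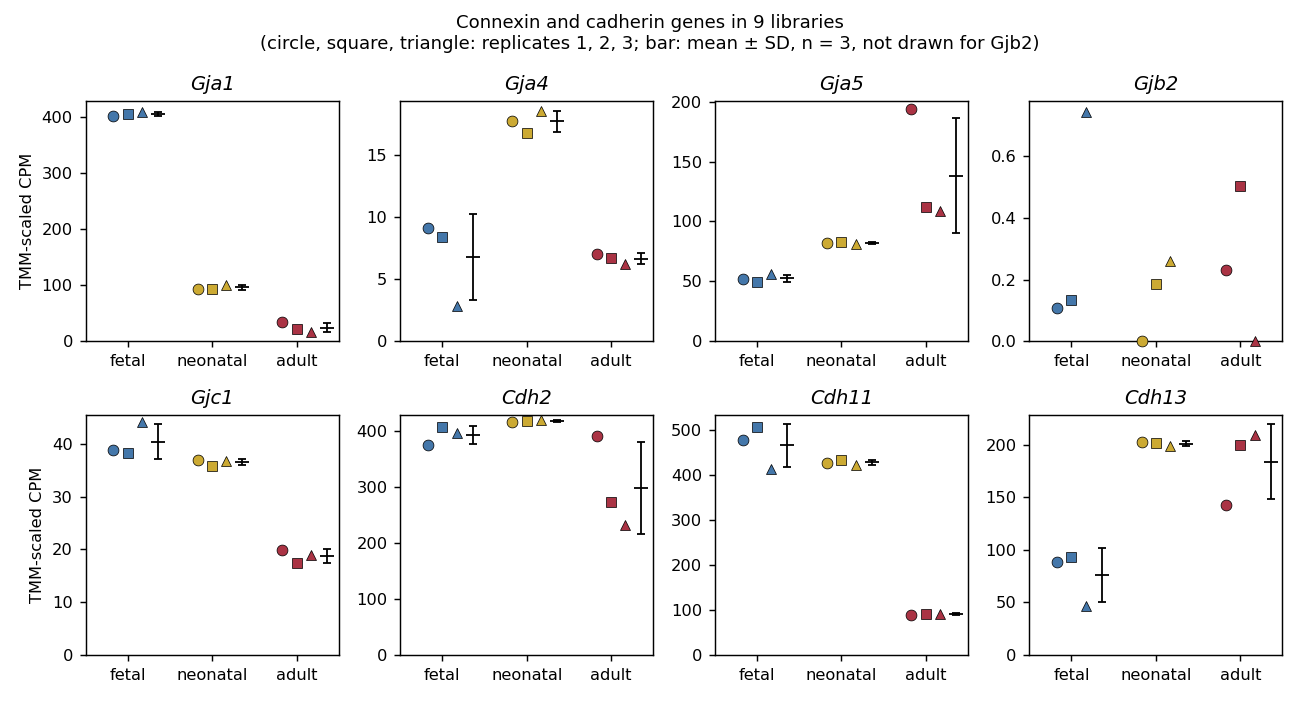
TMM-scaled CPM of the 8 genes (linear axes from 0, a scale of its own for each gene) in the fetal, neonatal and adult libraries, with circles, squares and triangles for replicates 1, 2 and 3 and a bar for the mean ± SD over 3 libraries, not drawn for Gjb2. Gja1 steps down from 406 to 95.8 and 24 CPM, Gja5 steps up from 52.4 to 82.1 and 138 CPM, and Cdh11 drops only in the adult libraries, from 466 and 428 to 90.9 CPM.

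Gjc1 encodes connexin 45, the first connexin of the embryonic heart and later a connexin of nodal cells (chromosome 10, 90781674 to 90909572, minus strand). Gjc1 was at 38.8, 38.2 and 44.2 CPM in fetal, 36.9, 35.9 and 36.7 CPM in neonatal and 19.9, 17.4 and 18.9 CPM in adult libraries. The adult libraries lay below all others, and the neonatal libraries just below the fetal ones. Adult cells had 2.15-fold less than fetal cells (log2 -1.11, SE 0.0866, edgeR adjusted p = 3.34e-06) and 1.95-fold less than neonatal cells (log2 -0.96, SE 0.0868, edgeR adjusted p = 1.33e-05). Neonatal and fetal cells differed by -0.15 on the log2 scale (SE 0.0832), which did not pass the threshold (edgeR adjusted p = 0.193).

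Gja4 encodes connexin 37, known from arterial endothelium and from mural cells, the pericytes and smooth muscle cells around vessels (chromosome 5, 145374688 to 145377221, minus strand). Its values were 9.13, 8.38 and 2.82 CPM in the fetal, 17.7, 16.8 and 18.5 CPM in the neonatal and 7.04, 6.65 and 6.22 CPM in the adult libraries. All neonatal libraries lay above all others, and fetal replicate 3 was the lowest of the 9. Gja4 rose 2.60-fold from fetal to neonatal cells (log2 1.38, SE 0.337, edgeR adjusted p = 0.0129) and fell 2.66-fold from neonatal to adult cells (log2 -1.41, SE 0.344, edgeR adjusted p = 0.00572). Adult and fetal cells did not differ past the threshold (log2 -0.03, SE 0.350, edgeR adjusted p = 0.937). Without fetal replicate 3 the rise was 1.01 on the log2 scale (edgeR adjusted p = 4.19e-05, within a range of 4.19e-05 to 0.044), and adult cells were below fetal cells by 0.40 on that scale (log2 -0.40, edgeR adjusted p = 0.0108, within a range of 0.0108 to 0.98). The 7 mural markers, all in the table and none at 0, summed to 385 and 389 RPKM in fetal replicates 1 and 2 and 195 in replicate 3, to 575 to 587 in neonatal and to 61.8 to 137.5 in adult libraries. Mcam was the highest of the 7 in every library, at 30.5 RPKM in adult replicate 1. Of the 7, 6 were higher in every neonatal than in every fetal library, and 6 lower in every adult than in every neonatal library. Within the fetal libraries both the sum and Gja4 were lowest in replicate 3. All adult libraries had a lower sum and more Gja4 than fetal replicate 3, and adult replicate 1 had the lowest sum and the highest adult Gja4. Among single markers Abcc9 was highest of the fetal libraries in replicate 3, at 2.83 RPKM against 1.78 and 2.24. The other mural markers were each lowest of the fetal libraries there, such as Notch3 at 5.33 RPKM against 37.8 and 34.8. In adult replicate 1 Kcnj8 and Abcc9 were highest of the adult libraries and the other mural markers lowest. Their part in the Gja4 result was not tested.

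Gjb2, connexin 26, is an epithelial connexin (chromosome 15, 37377314 to 37383277, minus strand) and was near the limit of detection. Its counts were 2, 3 and 14 in the fetal, 0, 4 and 4 in the neonatal and 3, 7 and 0 in the adult libraries, and it did not pass the filter on low counts. The highest count was in fetal replicate 3, which also held the epithelial markers at a summed 43.9 RPKM, against 0.631 and 0.572 RPKM in fetal replicates 1 and 2. With 3 counts in a library taken as the floor, no fold change is given for Gjb2.

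The make-up of the connexin transcripts differed between the ages (the stacked bars of shares by library). Gja1 made up 73.5% ± 0.53 of the summed RPKM of the 5 connexins in fetal, 33.5% ± 0.78 in neonatal and 11.1% ± 1.26 in adult cells (SD, n = 3). Gja5 made up 9.63% ± 0.49, 29.2% ± 0.88 and 64.6% ± 4.15 at the same ages. Gjc1 held 14.4% ± 1.01, 25.1% ± 0.37 and 17.8% ± 3.69, and Gja4 2.43% ± 1.25, 12.2% ± 0.41 and 6.32% ± 1.24. The sum itself was 176 ± 2.03 RPKM in fetal, 91.3 ± 1.53 in neonatal and 68.5 ± 19.0 in adult cells. The Gja1 share did not overlap between any 2 ages. An exact two-sided permutation test of that share gave p = 0.10 for each of the 3 pairs of ages (adjusted over the 3 pairs, 0.10), which is the smallest p that 3 libraries against 3 allow. RPKM depends on the annotated exon length, which was 3132 bases for Gja1, 3083 for Gja5, 1594 for Gjc1 and 1590 for Gja4.

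**Figure D2:**
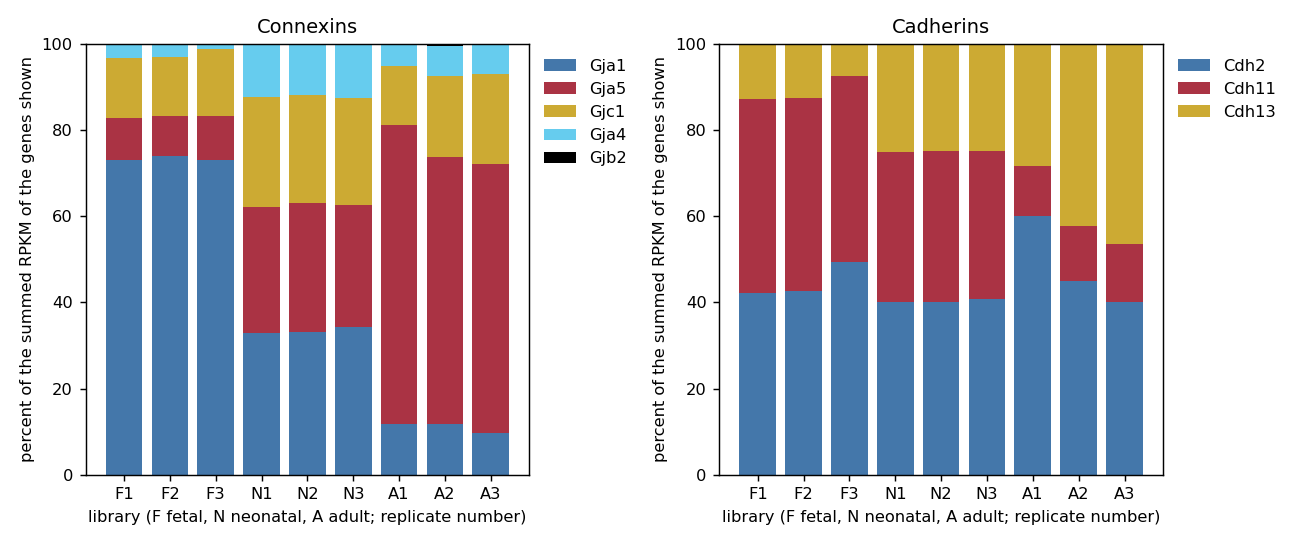
Percent of the summed RPKM of the 5 connexins (left) and of the 3 cadherins (right) taken by each gene, 1 stacked bar per library from 0 to 100%. Gja1 is the largest connexin part in each fetal library (73.2% to 74.1%) and Gja5 in each adult library (62.1% to 69.4%), while the Cdh11 part is 43.3% to 45.2% in fetal and 11.6% to 13.3% in adult libraries.

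Cdh2 encodes N-cadherin, the classical cadherin of cardiomyocyte intercalated discs and of fibroblast adherens junctions (chromosome 18, 8146971 to 8366025, minus strand). Its values were 375, 407 and 396 CPM in the fetal, 416, 417 and 419 CPM in the neonatal and 391, 273 and 233 CPM in the adult libraries. Adult replicate 1 lay among the fetal libraries, and the other adult libraries lay below all others. Adult cells had 1.40-fold less Cdh2 than neonatal cells (log2 -0.48, SE 0.159, edgeR adjusted p = 0.024) and 1.31-fold less than fetal cells (log2 -0.39, SE 0.159, edgeR adjusted p = 0.0489). These calls were not stable: the first was lost in 5 and the second in 8 of the 9 fits with 1 library left out (edgeR adjusted p up to 0.0839 and 0.15). Without adult replicate 1 the differences were larger, -0.72 and -0.63 on the log2 scale (edgeR adjusted p = 0.000155 and 0.000238, the lowest over the alternatives). Neonatal and fetal cells differed by 0.09 (SE 0.158, edgeR adjusted p = 0.686), although every neonatal library lay above every fetal one. All 11 cardiomyocyte markers were lower in every adult than in every fetal and every neonatal library. Between neonatal and fetal libraries 10 of the 11 were lower in this way. The part of this list in the Cdh2 result was not tested.

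Cdh11 encodes cadherin-11, or OB-cadherin, a type II cadherin of mesenchymal cells and myofibroblasts (chromosome 19, 2393059 to 2551245, plus strand). It was at 478, 506 and 413 CPM in the fetal, 427, 434 and 423 CPM in the neonatal and 89.5, 91.8 and 91.4 CPM in the adult libraries. The adult libraries lay close together and far below the rest, while fetal and neonatal libraries overlapped. Adult cells had 5.12-fold less than fetal cells (log2 -2.36, SE 0.0824, edgeR adjusted p = 2.53e-08) and 4.71-fold less than neonatal cells (log2 -2.23, SE 0.0821, edgeR adjusted p = 6.04e-08). The neonatal to fetal difference was -0.12 (SE 0.0779, edgeR adjusted p = 0.244). Without fetal replicate 3 it was -0.20 and passed the threshold (edgeR adjusted p = 0.00723, within a range of 0.00723 to 0.604). The fibroblast marker sum was 7260 to 8956 RPKM in the adult libraries, below 15247 to 16378 in the neonatal libraries and below 11355 and 10677 in fetal replicates 1 and 2, but 6420 in fetal replicate 3. Single fibroblast markers were split: of 10, 4 were higher and 4 lower in every adult than in every neonatal library. Against fetal libraries 5 were higher and 2 lower in this way. Macrophage markers were highest in the adult libraries. Their part in the Cdh11 result was not tested.

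Cdh13 encodes T-cadherin, an atypical cadherin held in the membrane by a lipid anchor and lacking the catenin-binding tail (chromosome 19, 50848793 to 51971614, plus strand). Its values were 88.0, 93.6 and 46.3 CPM in the fetal, 203, 202 and 199 CPM in the neonatal and 143, 199.9 and 209 CPM in the adult libraries. Every fetal library lay below every other, lowest in replicate 3, and the adult range took in the neonatal values. Cdh13 rose 2.64-fold from fetal to neonatal cells (log2 1.40, SE 0.247, edgeR adjusted p = 0.0032) and was 2.42-fold higher in adult than in fetal cells (log2 1.27, SE 0.247, edgeR adjusted p = 0.00147). Without fetal replicate 3 the differences were 1.15 and 1.01 on the log2 scale (edgeR adjusted p = 0.000689 and 0.000412, within ranges of 1.62e-07 to 0.0145 and 5.09e-07 to 0.00789). Adult and neonatal cells differed by -0.13 (SE 0.242, edgeR adjusted p = 0.665). The mural marker sum was lowest in fetal replicate 3 and adult replicate 1, as was Cdh13 within those ages, but not within the neonatal libraries, where Cdh13 was lowest in replicate 3 and the sum in replicate 1. Between ages the sum was lower in every adult than in every fetal library while Cdh13 was higher, and its part was not tested.

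Among the cadherins the balance of Cdh11 to Cdh2 shifted in adult cells. Per exon length the ratio of Cdh11 to Cdh2 was 1.07, 1.04 and 0.878 in the fetal, 0.863, 0.875 and 0.848 in the neonatal and 0.193, 0.283 and 0.331 in the adult libraries. On the log2 scale the adult ratio minus the fetal one was -1.92, the adult minus the neonatal -1.72 and the neonatal minus the fetal -0.21. No pair of ages overlapped, and the exact two-sided permutation test gave p = 0.10 for each (adjusted 0.10), the smallest value this design allows. Cdh13 took 10.9% ± 3.04 of the summed cadherin RPKM in fetal, 25.0% ± 0.20 in neonatal and 39.0% ± 9.56 in adult cells. The sum of the 3 cadherins was 203 ± 17.3, 238 ± 1.31 and 141 ± 8.25 RPKM.

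The order of the members by RPKM differed between ages. In fetal cells it ran Gja1, Cdh2, Cdh11, Gjc1, Cdh13, Gja5, Gja4 and Gjb2. There Cdh2 (90.2 ± 3.76) and Cdh11 (90.0 ± 9.16) overlapped, as did Gjc1 (25.3 ± 2.07) with Cdh13 (22.5 ± 7.64) and Cdh13 with Gja5 (17 ± 1.06). In neonatal cells the order was Cdh2, Cdh11, Cdh13, Gja1, Gja5, Gjc1, Gja4 and Gjb2, from 96.0 ± 0.41 for Cdh2 to 11.1 ± 0.55 for Gja4, and no neighbours overlapped. In adult cells Cdh2 (68.7 ± 18.9), Cdh13 (54.4 ± 10.6) and Gja5 (44.8 ± 15.6) led, each overlapping the next. Cdh11 (17.6 ± 0.24), Gjc1 (11.8 ± 0.79), Gja1, Gja4 (4.17 ± 0.26) and Gjb2 followed without overlap.

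Of the 7 members tested, 4 were called between neonatal and fetal cells (3 higher, 1 lower), against 36.3% of all 11337 tested genes (18.3% higher and 18.0% lower). With library size alone as the scaling, 29.0% of all calls in that comparison were higher, against 50.4% with TMM. Between adult and fetal cells 6 of 7 were called (2 higher, 4 lower), against a background of 70.5% (34.9% and 35.5%). Between adult and neonatal cells 6 of 7 were called (1 higher, 5 lower), against 63.5% (31.6% and 31.8%). Libraries of the ages compared were fully separated for 6, 5 and 6 members, against 57.4%, 71.8% and 76.1% of the tested genes. The median size of change over the 7 members was 0.65, 1.27 and 0.96 on the log2 scale, against 0.29, 0.63 and 0.52 over all tested genes. A log2 fold change of at least 1 was also met by 3, 5 and 3 members, against 11.2%, 32.4% and 25.0% of the tested genes. The 3 comparisons share libraries. The members were chosen with earlier results of these data known, so the contrast with all tested genes is a description and no independent test.

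**Figure D3:**
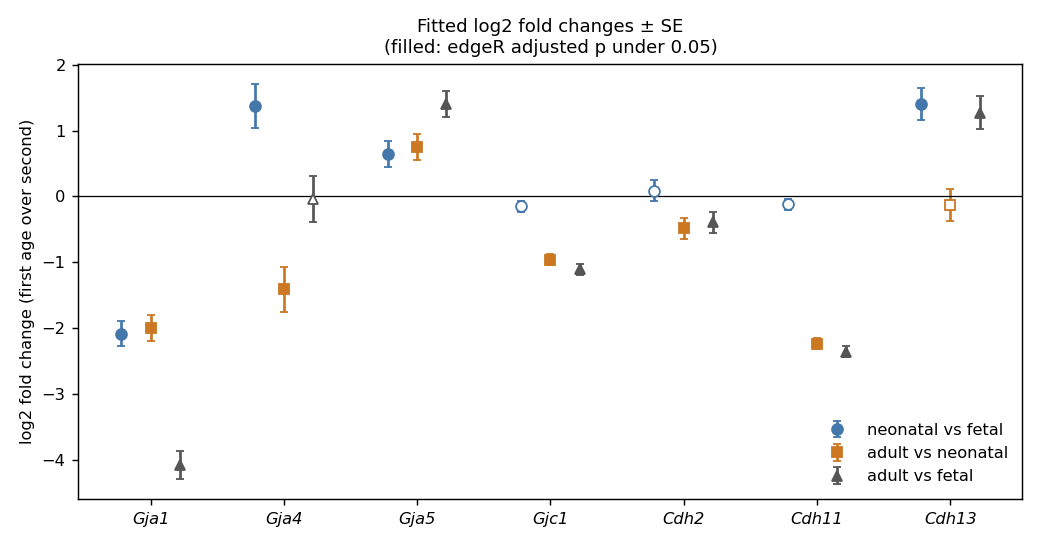
Fitted log2 fold change ± SE (vertical axis, first age over second) of the 7 tested members for the 3 pairs of ages, filled where the edgeR adjusted p was under 0.05. Gja1 lies below 0 in all 3 comparisons (-2.08, -2.0 and -4.08) and Gja5 above 0 in all 3 (0.65, 0.75 and 1.40), while Cdh11 lies near 0 only between neonatal and fetal cells (-0.12).

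Marker levels give the setting of these differences. Across the 9 libraries the cardiomyocyte sum was highest in fetal replicates 1 and 2, and the mural sum in the neonatal libraries. The macrophage sum was highest in the adult libraries. Schwann cell markers, 5 of 6 in the table and none at 0, summed to 3.26 to 3.54 RPKM in fetal, 2.81 to 2.91 in neonatal and 3.54 to 4.03 in adult libraries. Epithelial markers were at or below 0.427 RPKM in sum in every adult and neonatal library, with 5 of 6 at or below 3 counts at both ages.

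**Figure D4:**
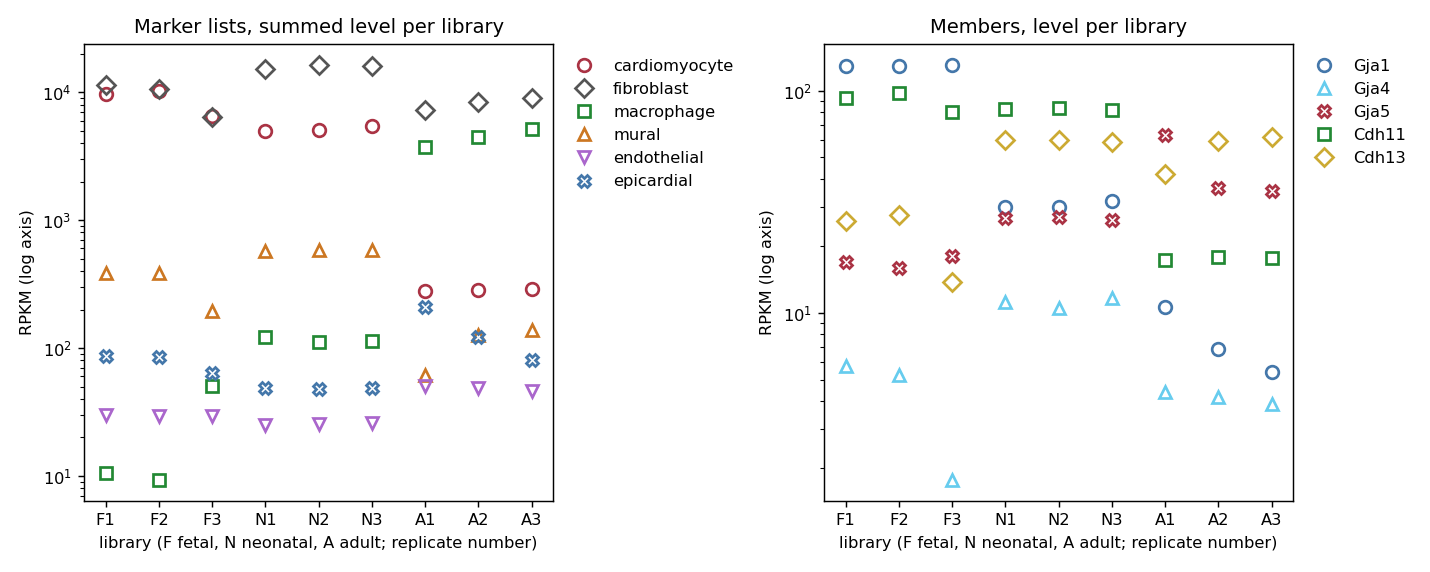
Summed RPKM of 6 marker lists (left) and RPKM of 5 members (right) in each library, on log axes. The mural sum, Gja4 and Cdh13 are lower in fetal replicate 3 (195, 1.77 and 13.7 RPKM) than in the other fetal libraries, and the cardiomyocyte sum is at least 4947 RPKM in neonatal and at most 291 RPKM in adult libraries.

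For each tested member the 2 genes with the most similar profile were taken from 9342 tested genes with a mean of at least 5 CPM. Likeness was the root mean square difference of log2 CPM over the 9 libraries after centring each gene, a description that mostly reflects the 3 ages. Bdnf, a neurotrophin, lay nearest to Gja1 (0.22), at 31.8 ± 3.49 CPM in fetal, 8.02 ± 0.34 in neonatal and 2.14 ± 0.36 in adult cells, followed by the netrin receptor gene Unc5c (0.34). The median distance from Gja1 over all candidates was 1.72. Col14a1 (0.18), a fibril-associated collagen, and C1qtnf6 (0.18) lay nearest to Gja4, and Col14a1 was likewise highest in neonatal cells, at 3091 ± 71 CPM against 1032 ± 565 in fetal and 1139 ± 235 in adult cells. Oplah and Id3, an inhibitor of basic helix-loop-helix factors, lay nearest to Gja5 (both 0.14). Id3 was at 180 ± 23.6, 284 ± 9.20 and 504 ± 121 CPM.

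Pcgf3 (0.06) and Ythdf3 (0.07) lay nearest to Gjc1, and Klhl24 (0.06) and Frs2 (0.09) nearest to Cdh2. Cdh11 was most like Sh3pxd2a (0.12), which encodes a scaffold of invadopodia and was at 116 ± 10.3, 119 ± 8.10 and 25.2 ± 3.32 CPM, and Dcaf17 (0.16). Cdh13 was most like Olfm2 (0.13) and Plod1 (0.17), a collagen lysyl hydroxylase at 164 ± 47.8, 362 ± 6.27 and 376 ± 22.3 CPM. Among the members themselves the closest pair was Gjc1 and Cdh2 (0.33), and Gja1 lay farther from its closest member, Cdh11 (0.92), than any other member did from its own. Profiles were centred but not scaled, and a member's own SD of log2 CPM ran from 0.29 for Cdh2 to 1.70 for Gja1. The distance between Gjc1 and Cdh2 thus exceeded the spread of Cdh2 itself.

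Other genes of the 2 families were mostly low. Of 16 further connexin and pannexin genes in the table, 5 passed the filter. The 11 others had at most 19 counts in any library. Gja3, the lens connexin 46, was at 3.30 ± 0.73 CPM in fetal and 1.21 ± 0.14 in neonatal cells and at or below 3 counts in each adult library. Adult cells were at least 14.7-fold lower than fetal (edgeR adjusted p = 5.77e-05) and at least 5.4-fold lower than neonatal cells (edgeR adjusted p = 0.00104), with 3 counts per library as the floor. The pannexin gene Panx1, a channel former related to connexins, was at 11.4 ± 1.45, 10.3 ± 0.84 and 9.82 ± 0.97 CPM and passed no threshold (edgeR adjusted p from 0.201 to 0.691).

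Of 16 further cadherin genes in the table, 10 were tested. Of these, 2 were higher and 5 lower between neonatal and fetal cells. The counts were 2 and 7 between adult and fetal, and 2 and 4 between adult and neonatal cells. Fitted medians were -0.71, -2.77 and -1.38 on the log2 scale, against -0.01 over all tested genes in each comparison. They were -0.71, -2.31 and -1.03 once genes at the floor at only 1 of the ages compared were placed at their bound. Of the 4 lower between adult and neonatal cells, 1 was at or below 3 counts in every library of both ages. It kept its fitted value (log2 -4.00), and its call was lost in 7 of the 9 fits with 1 library left out. Between neonatal and fetal cells 1 of the 2 higher calls was lost in 7 of these fits. Of the lower calls there, some were lost in 6, 3 and 3 fits and the others in 0. Without fetal replicate 3 the fetal means of several lower genes were smaller, from 3.82 to 1.82 CPM for 1 of them, while another went from 3.29 to 3.90 CPM. Over all tested genes 18.3% were higher and 18.0% lower, 34.9% and 35.5%, and 31.6% and 31.8% in these comparisons. Cdh3, P-cadherin, was by far the highest of them, at 53.3 ± 4.71 RPKM in fetal, 53.3 ± 1.31 in neonatal and 13.9 ± 1.65 in adult cells. Its CPM ran from 167 to 199 in fetal, 179 to 187 in neonatal and 42.5 to 53.9 in adult libraries. Cdh3 fell by 1.94 on the log2 scale between neonatal and adult cells (log2 -1.94, SE 0.0986, edgeR adjusted p = 4.14e-07), and its fetal and neonatal libraries overlapped. Cdh5, the endothelial VE-cadherin, was at 0.255 ± 0.0744, 1.58 ± 0.34 and 4.23 ± 1.49 CPM and rose at each step (edgeR adjusted p = 0.00176 and 0.00411). Cdh17, of intestinal epithelium, averaged 2.03, 2.15 and 1.0 CPM, and its adult calls were lost in 7 (against fetal) and 4 (against neonatal) of the 9 fits with 1 library left out. E-cadherin, Cdh1, had a fetal mean of 38.9 CPM that was 1.82 CPM without fetal replicate 3, where it reached 113 CPM, and its calls against fetal cells were lost in 3 (neonatal) and 4 (adult) of those fits.

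The adherens junction partners, 13 genes in the table and 12 tested, were mostly lower in adult cells. Between neonatal and fetal cells 2 were higher and 3 lower, between adult and fetal cells 0 and 10, and between adult and neonatal cells 0 and 9. The shares over all tested genes were 18.3% and 18.0%, 34.9% and 35.5%, and 31.6% and 31.8%. Their median log2 differences were -0.01, -1.20 and -0.92, against -0.01 over all tested genes in each comparison. Of the 2 calls higher in neonatal than in fetal cells, 1 was lost in 7 of the 9 fits with 1 library left out. Ctnnb1 (β-catenin), which binds the cadherin tail, was at 566 ± 39.0 CPM in fetal, 568 ± 16.2 in neonatal and 282 ± 13.9 in adult cells (adult against neonatal log2 -1.01, edgeR adjusted p = 3.96e-06). Ctnna1 (α-catenin), which links it to actin, was at 798 ± 49.8, 495 ± 3.98 and 279.7 ± 9.89 CPM and fell at both steps (edgeR adjusted p = 0.000141 and 8.32e-06). Ctnnd1 (p120 catenin), which stabilises cadherins at the membrane, was at 424 ± 46.0, 478 ± 12.1 and 349 ± 5.90 CPM (adult against neonatal log2 -0.45, edgeR adjusted p = 0.000978). Vcl (vinculin), recruited to catenin under tension, was at 1593 ± 281 CPM in fetal and, after a rise, at 2270.2 ± 83.5 in neonatal cells (edgeR adjusted p = 0.0129). In adult cells Vcl was at 618 ± 37.9 CPM (adult against neonatal edgeR adjusted p = 2.6e-06). The cardiomyocyte marker sum was at most 291 RPKM in adult and at least 4947 in neonatal libraries. The macrophage sum was 3753 to 5190 RPKM in adult and at most 121 in neonatal libraries. The part of either list in these differences was not tested.

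The gap junction partners were 8 genes in the table, all tested. Between neonatal and fetal cells 1 was higher and 4 lower (18.3% and 18.0% of all tested genes). Of the 4 lower calls, 1 was lost in 4 and another in 6 of the 9 fits with 1 library left out. In both adult comparisons 1 was higher and 6 lower (34.9% and 35.5% of all tested genes against fetal, 31.6% and 31.8% against neonatal cells). The medians were -0.24, -1.05 and -0.94 on the log2 scale, against -0.01 over all tested genes in each comparison. Nedd4, a ubiquitin ligase that acts on connexin 43, fell from 3082 ± 117 CPM in neonatal to 1388 ± 57.4 in adult cells (log2 -1.15, edgeR adjusted p = 2.54e-06). Cav1, caveolin 1, was at 343 ± 17.8, 500.0 ± 11.6 and 156 ± 12.9 CPM, a rise followed by a fall (edgeR adjusted p = 0.000912 and 2.42e-07). Dbn1, the actin-binding drebrin, was at 259 ± 17.1, 219 ± 7.34 and 161 ± 3.32 CPM (adult against neonatal edgeR adjusted p = 0.000286). Mapre1, the microtubule-end protein EB1 that guides connexin 43 delivery, was at 285 ± 70.1, 224 ± 7.41 and 241 ± 5.80 CPM and passed no threshold (edgeR adjusted p from 0.0809 to 0.537). The part of the cardiomyocyte and macrophage markers in the differences of this list was not tested either.

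Of the desmosome genes, 6 were in the table and 4 tested. Lower calls numbered 3 of 4 between neonatal and fetal, 4 of 4 between adult and fetal and 3 of 4 between adult and neonatal cells, with 0 higher in each by edgeR, against 18.0%, 35.5% and 31.8% lower over all tested genes. Their medians were -1.40, -3.57 and -2.17 on the log2 scale, against -0.01 over all tested genes in each comparison. Pkp2, plakophilin 2 of the intercalated disc, was at 134 ± 6.97, 60.8 ± 2.16 and 6.0 ± 0.89 CPM and fell at both steps (edgeR adjusted p = 4.24e-05 and 2.52e-08). Pkp1 was at 297 ± 116, 93.2 ± 3.02 and 46.5 ± 11.8 CPM, Perp at 14.4 ± 3.36, 9.86 ± 1.48 and 0.173 ± 0.189 CPM and Dsc2 at 10.7, 1.89 and 2.90 CPM on average. Fetal replicate 3 was the highest library for Pkp1 (430.5 CPM) and Dsc2 (16.8 CPM). Without it the fetal means were 230.1 and 7.69 CPM, and the neonatal to fetal log2 differences -1.30 in place of -1.67 for Pkp1 and -2.03 in place of -2.51 for Dsc2. Cardiomyocytes and epithelial cells both carry desmosomal proteins. The cardiomyocyte sum was higher in all fetal than in all other libraries, the epithelial sum was 43.9 RPKM in fetal replicate 3 against 0.631 and 0.572 in the other fetal libraries, and the part of either list in these differences was not tested.

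**Figure D5:**
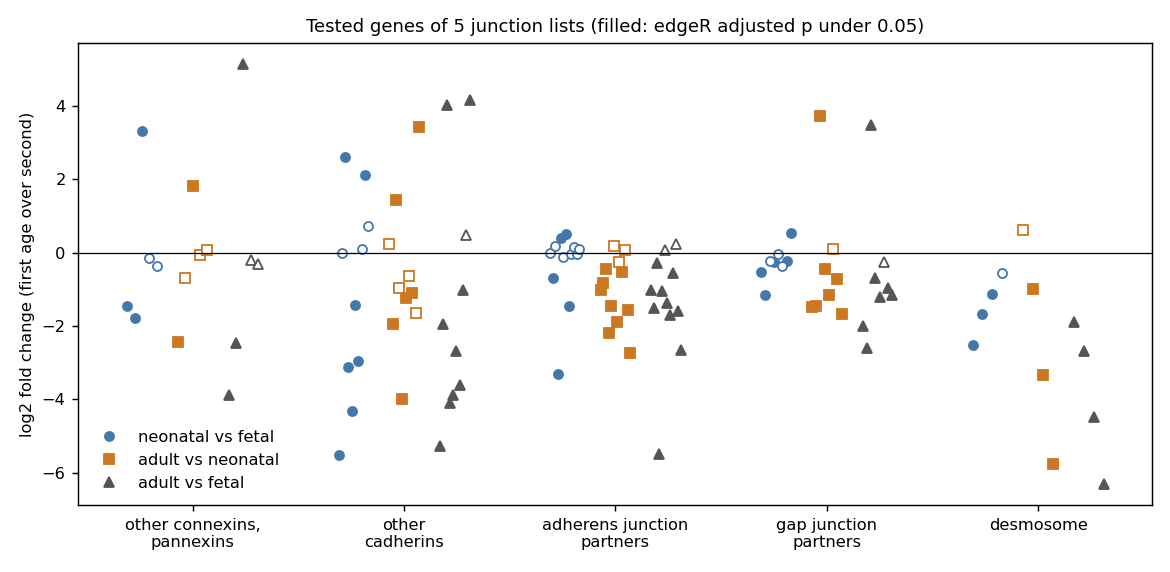
Log2 fold change (vertical axis, first age over second) of each tested gene of 5 junction lists for the 3 pairs of ages, filled where the edgeR adjusted p was under 0.05. Genes at or below 3 counts in every library of only 1 of the ages compared are drawn at their lower bound. The 1 cadherin gene at or below 3 counts in all neonatal and adult libraries is drawn at its fitted value between these ages (-4.00). In the adult comparisons most partner genes lie below 0, with medians of -1.20 and -0.92 for the adherens junction list.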

How the data were processed

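RNA of 9 libraries, 3 per age, was analysed from a deposited table of raw read counts per gene, which the authors made with featureCounts 1.6.3 on an rn6 annotation, per the file headers. STAR 2.5.2b, Trimmomatic 0.39 and DESeq2 are named in the submitters' processing notes with no role. The header gives no strand option, so reads from overlapping and antisense genes may not be told apart. Exon length is another deposited column. A deposited normalized signal table equalled counts divided by 1 factor per library and served only to check scaling. From the counts, edgeR 4.0.16 (R 4.3.3) was run with filterByExpr, TMM and robust quasi-likelihood fits over all libraries with age as the only term, which tested 11337 genes. P-values were Benjamini-Hochberg adjusted over these genes, with a threshold of 0.05, and a prior count of 2 went into log2 CPM. Fold changes are fitted values. The SE of a log2 fold change is its absolute value divided by the square root of the quasi-likelihood F statistic, so it is derived from the test. The script was tested on simulated data.

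Alternatives were DESeq2 1.42.0, its size factors or library size alone as scaling, no filter or 1 CPM in 3 libraries, only the 2 ages compared, a replicate block, each library left out, and a log2 fold change of at least 1. The members and lists were chosen with earlier results of these data known. Named are the members, the 4 tested genes of each list highest per exon length, and the 2 nearest profiles per member. Some genes of the lists are not reported here. Symbols Mllt4 and Pvrl1 to Pvrl3 are older names of listed genes. Depth of 13392825 to 22850491 counts per library sets the precision of low genes, and 3 counts was the floor, covering counting error only.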

Additional observations from a re-analysis of the deposited data

How the results depend on the processing

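Of 336 refitted member differences, 304 kept direction and side of the threshold, 22 lost and 4 gained a call and 6 changed sign. Cdh2 between neonatal and fetal cells was -0.083 with library size alone, which shifted the median of all genes to -0.18 there and to -0.12 between adult and fetal cells. With that scaling Gja5 lost its neonatal to fetal call (0.47, adjusted p = 0.0768) and Gjc1 (-0.32, adjusted p = 0.0422) and Cdh11 (-0.29, adjusted p = 0.0077) gained one. Gja4 between adult and fetal cells was 0.030 with the replicate block and ran from -0.40 to 0.22 without 1 library, and Cdh13 between adult and neonatal cells from -0.23 to 0.025 (without adult replicate 1). Only the 2 ages in the fit lost both Cdh2 calls (adjusted p = 0.0903 and 0.0587). The cause was not tested. A minimum log2 fold change of 1 left 1272, 3675 and 2838 genes (neonatal against fetal, adult against fetal, adult against neonatal) and, in the last, 3 members. Without 1 library the neonatal to fetal count ran from 2476 to 4679 genes, lowest without neonatal replicates 1, 2 and 3 (2607, 2476 and 2575). Same-numbered libraries of different ages deviated together at r = -0.065 to 0.052 over genes. These values show no shared deviation, but whether same-numbered libraries were handled together is not known from the labels. With the replicate block 3713, 7801 and 6985 genes were called against 4114, 7987 and 7197, and it changed no call of a member. Not every library correlated best with its own number. Depth limits Gjb2 and the low connexins and cadherins.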

Other observations

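Tjp1, whose product ZO-1 binds the connexin 43 tail at gap junctions, and its relative Tjp3 were chosen for this paragraph after their values were seen. Tjp1 was at 231 to 272 CPM in fetal, 164 to 179 in neonatal and 54.8 to 69.9 in adult libraries. The ages did not overlap, with log2 fold changes of -0.52 (edgeR adjusted p = 0.00379) and -1.47 (edgeR adjusted p = 2.72e-06) at the 2 steps. Tjp3 went the other way in adult cells, from 0.584 ± 0.163 CPM in neonatal to 7.80 ± 1.22 in adult cells (log2 3.73, SE 0.293, edgeR adjusted p = 5.93e-06).

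Further junction genes chosen in the same way were Ctnnd2, the neural δ-catenin, at 10.1 ± 4.64 CPM in fetal and 1.01 ± 0.16 in neonatal cells and at 0 counts in all adult libraries. Adult cells were at least 45.1-fold below fetal cells (edgeR adjusted p = 1.86e-05), against a floor of 3 counts per library. Cdh23, a cadherin of hair-cell tip links, was at 0.113 ± 0.0979, 0.192 ± 0.135 and 2.19 ± 0.937 CPM (adult against neonatal edgeR adjusted p = 0.00152). Plekha7, which ties p120 catenin to microtubules, was at 8.05 ± 2.08, 8.68 ± 0.558 and 1.28 ± 0.452 CPM (adult against neonatal edgeR adjusted p = 3.72e-05).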
